A study of Rattus norvegicus with 6 samples.

Results

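The 10 genes described here encode the machinery that sets whether a cell leaves the G1 phase of the cell cycle: the cyclin-dependent kinase (CDK) inhibitors Cdkn1a, Cdkn1b, Cdkn1c and Cdkn2c, the D-type cyclins Ccnd1, Ccnd2 and Ccnd3, their kinase partners Cdk4 and Cdk6, and the transcription factor Myc. They were taken by gene name from the deposited count tables, which list 23139 genes, and all 10 were among the 11977 genes tested. The genes were selected with measured values of this same comparison known, so that their levels and fold changes are a description and carry no p-value. Bulk mRNA was sequenced from primary microglia, the resident immune cells of the brain, which had been shaken off mixed cultures of cortices of Wistar rats at postnatal day 1 and enriched with beads against CD11b/c. All 6 libraries came from cells given 100 ng/mL lipopolysaccharide (LPS, a bacterial cell wall molecule used to activate microglia). In 3 libraries LPS was combined with the solvent DMSO, called LPS in the following, and in 3 with 50 µM siponimod, a modulator of sphingosine-1-phosphate receptors, called LPS/siponimod. Unstimulated cells and cells given siponimod alone were not analysed here, and the time between stimulation and RNA harvest of the sequenced cells is not clear from the sources used here. The LPS libraries held 39484979, 38301365 and 38080379 counts in the order of their replicate numbers, and the LPS/siponimod libraries 46643859, 43336006 and 38857441. Values are given as CPM (counts scaled to a common library size) after scaling by edgeR's TMM method, and 1 count was worth between 0.0215 and 0.027 CPM. Gene lengths were not used, so that CPM values are compared between libraries for a gene and not between genes.

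In G1, D-type cyclins bind and activate Cdk4 and Cdk6, which phosphorylate the retinoblastoma (RB) family and so release E2F transcription factors, which drive genes of DNA replication. Inhibitors of the INK4 family, such as Cdkn2c, bind Cdk4 and Cdk6 themselves, whereas the CIP/KIP inhibitors Cdkn1a, Cdkn1b and Cdkn1c bind whole cyclin-CDK complexes. Myc promotes growth and G1 progression, and Cdkn1c is an imprinted gene, expressed mainly from the maternal allele.

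The libraries carried the markers of their labelled cell type. All 10 microglia markers were detected, and their summed level was 6179, 5485 and 3932 CPM in LPS and 2526, 3510 and 2134 CPM in LPS/siponimod. Csf1r, the receptor that microglia need to survive, made up the largest part of this sum over all libraries. The groups did not overlap in this sum, and every LPS/siponimod library lay below every LPS library. In edgeR's quasi-likelihood test 3 markers were lower and none was higher: Itgam, which encodes CD11b, with a log2 fold change of -0.87 (SE 0.14, adjusted p = 0.0112), Aif1, which encodes Iba1, with -1.88 (SE 0.40, adjusted p = 0.0212), and the fractalkine receptor Cx3cr1 with -3.65 (SE 1.00, adjusted p = 0.0392). Without LPS replicate 2, LPS/siponimod replicate 1, LPS/siponimod replicate 3 or replicate 3 of both conditions, edgeR called 0 of the 10 markers (3, 3, 4 and 5 at an unadjusted p under 0.05, against 7 with all libraries), without LPS replicate 3 it was 5, and with the replicate number as a block 6. Over all genes, 5234 of 11977 tested passed at that unadjusted p with all libraries. In the 4 fits without a called marker it was 3861 of 12613, 3673 of 12583, 4066 of 12178 and 5080 of 12032. The share of all genes called moved with these fits. With all libraries 11.7% were called lower and 13.6% higher. In either direction, 5.16%, 6.22%, 8.5% and 19.3% were called in the 4 fits without a called marker. It was 30.3% without LPS replicate 3 and 34.0% with the block. In bulk samples, fewer cells of a type and less RNA per cell cannot be told apart, here or in any value below.

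Among markers of other cells, replicate 3 of both conditions stood apart in the oligodendrocyte lineage and neuron lists. Since gene lengths were not used and the lists differ in size, sums are compared between libraries and not between lists. The summed level of 7 oligodendrocyte lineage markers was 5.34, 5.37 and 36.0 CPM in LPS and 11.4, 10.3 and 22.6 CPM in LPS/siponimod. Mbp made up the largest part of this sum over all libraries, but not in LPS replicate 3, where it was lowest of its condition (4.02, 4.18 and 2.26 CPM in LPS) and Olig1 made up 13.9 CPM. For 5 neuron markers the sum was 1.67, 1.04 and 11.3 CPM in LPS and 4.37, 5.85 and 15.1 CPM in LPS/siponimod, with the largest part over all libraries from Tubb3. In both lists replicate 3 held the highest sum of its condition. Markers of the progenitor stage, named after their values were seen, carried the difference in LPS: counts of Pdgfra, a receptor of oligodendrocyte progenitors, were 5, 4 and 284 in LPS and 1, 4 and 81 in LPS/siponimod, and those of Olig1 were 1, 5 and 515 in LPS and 2, 3 and 17 in LPS/siponimod. Astrocyte markers summed to 42.2, 20.9 and 20.5 CPM in LPS and to 27.3, 26.4 and 56.8 CPM in LPS/siponimod, mostly from Slc1a3, and fibroblast markers stayed between 2.09 and 5.96 CPM, led by Col1a1. The endothelial list held 165, 213 and 93.0 CPM in LPS and 38.2, 81.9 and 26.2 CPM in LPS/siponimod, mostly from Cdh5, while Kdr, a defining endothelial receptor, had no count in any library. The part of these other cells in the results below was not tested, and the fit was repeated without replicate 3 of both conditions, a choice made after seeing the data.

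**Figure D1:**
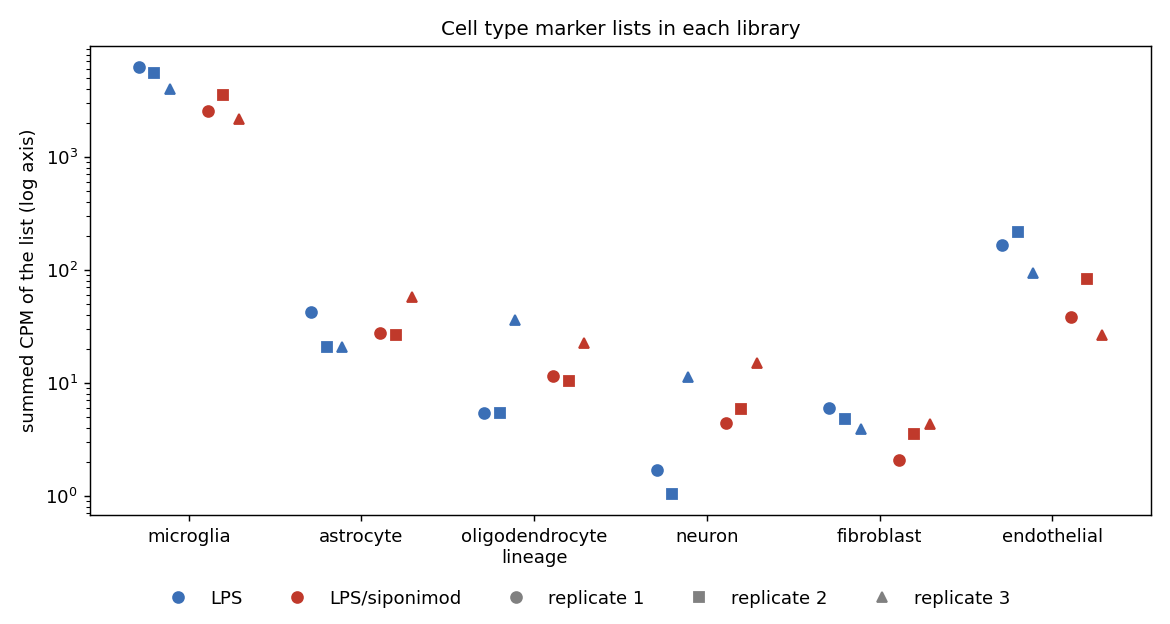
Summed CPM (log axis) of each cell type marker list in the 6 libraries, with LPS in blue, LPS/siponimod in red and 1 symbol per replicate number. Replicate 3 of both conditions (triangles) held the highest oligodendrocyte lineage and neuron sums of its condition. Lists differ in size and gene lengths, so that sums are compared between libraries and not between lists.

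Among the CIP/KIP inhibitors, Cdkn1c passed from near the detection limit in LPS to a clear signal in every LPS/siponimod library. Its level was 0.162, 0.0519 and 0.377 CPM in LPS, from 6, 2 and 14 counts, and 48.8, 25.4 and 15.4 CPM in LPS/siponimod, from 2266, 1134 and 632 counts. The groups were far apart: the lowest LPS/siponimod library exceeded the highest LPS library 40.9-fold, while the highest exceeded the lowest 7.26-fold within LPS and 3.16-fold within LPS/siponimod. Means were 0.197 ± 0.165 CPM (SD, n = 3) in LPS and 29.9 ± 17.1 CPM (SD, n = 3) in LPS/siponimod, and the fitted log2 fold change was 7.23 (SE 0.78), or 150.1-fold. The size of the ratio differed between pairs: between libraries of the same number it was 301 (95% exact counting interval 138 to 822) for replicates 1, 489 (135 to 4050) for replicates 2 and 40.9 (24.2 to 75.3) for replicates 3. The intervals of the first 2 pairs were wide, with few counts in LPS, but they did not overlap that of replicates 3, so that the pairs differed by more than counting error, and the cause was not tested. The pair of replicate 3, in which the oligodendrocyte lineage and neuron sums were highest, had the smallest ratio, and without both of these libraries the log2 fold change was 8.41. Over all 14 alternative settings it lay between 6.68 and 8.41.

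Cdkn1b, the inhibitor that restrains cyclin E and cyclin A complexes of Cdk2, was at 32.6, 22.9 and 23.4 CPM in LPS and at 72.6, 81.4 and 74.6 CPM in LPS/siponimod. The groups did not overlap, and the values within LPS/siponimod lay close together. The log2 fold change was 1.53 (SE 0.17), or 2.89-fold, it stayed between 1.45 and 1.73 over the alternatives, and it was 1.48 without replicate 3 of both. Cdkn1a, an inhibitor induced under stress, went the other way, with 1540.4, 746 and 616 CPM in LPS and 509, 511 and 466 CPM in LPS/siponimod. All 3 LPS libraries lay above all 3 LPS/siponimod libraries, but LPS replicate 1 was more than 2 times as high as either of the others of its condition. The log2 fold change of Cdkn1a was -0.97 (SE 0.36), or 1.95-fold lower, and it did not pass the thresholds of a differentially expressed gene (DEG), which were an adjusted p up to 0.05 together with a 1.5-fold difference. It was -0.44 (SE 0.16) without LPS replicate 1 and -1.20 (SE 0.32) without LPS replicate 3, where it passed, and -1.16 (SE 0.40) without replicate 3 of both, where it did not.

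The start regions of these genes were compared as sequence only. RefSeq promoters (250 bases before to 50 after the start, build GRCr8) were at hand for Cdkn1a, Cdkn1b, Cdkn2c, Ccnd3 and Cdk4, and 7 short motifs were searched on both strands. They were the TATA box, as TATAAA, the GC box that Sp1 binds, as GGGCGG, the E-box that Myc binds with its partner Max, as CACGTG, the cyclic AMP response element, as TGACGTCA, both common forms of the E2F site, as TTTCGCGC and as TTTGGCGC, and the stress response element of Atf4, as TGATGNAA. None of these overlaps another in the promoters shown. The promoters of the 3 genes with the clearest difference among these 5 are shown in lower case with the motif matches in capitals, Cdkn1b and Cdk4 on the plus strand at chr4:169491254-169491553 and chr7:64771203-64771502, and Ccnd3 on the minus strand at chr9:20897826-20898125.
Cdkn1b: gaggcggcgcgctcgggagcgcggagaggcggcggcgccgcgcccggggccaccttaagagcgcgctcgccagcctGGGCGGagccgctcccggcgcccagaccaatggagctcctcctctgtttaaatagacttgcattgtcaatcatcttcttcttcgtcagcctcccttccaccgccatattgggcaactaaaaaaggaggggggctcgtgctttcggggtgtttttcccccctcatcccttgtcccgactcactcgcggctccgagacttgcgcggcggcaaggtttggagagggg
Cdk4: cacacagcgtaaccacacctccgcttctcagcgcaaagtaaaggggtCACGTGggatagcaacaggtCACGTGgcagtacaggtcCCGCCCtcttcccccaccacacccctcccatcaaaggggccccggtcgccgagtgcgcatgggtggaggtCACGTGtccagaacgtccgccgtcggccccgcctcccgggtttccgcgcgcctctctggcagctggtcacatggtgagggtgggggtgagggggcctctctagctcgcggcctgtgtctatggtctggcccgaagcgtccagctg
Ccnd3: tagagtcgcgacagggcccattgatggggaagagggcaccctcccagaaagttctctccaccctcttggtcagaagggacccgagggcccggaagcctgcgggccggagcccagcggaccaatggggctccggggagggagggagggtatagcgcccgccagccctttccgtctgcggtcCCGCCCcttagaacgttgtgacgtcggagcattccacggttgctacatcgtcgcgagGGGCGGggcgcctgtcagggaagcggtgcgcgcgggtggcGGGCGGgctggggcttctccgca
The Cdk4 promoter held 3 CACGTG matches, 203, 183 and 95 bases before the start, and 1 GGGCGG on the other strand. CACGTG occurs in 6.42% of the 33469 rat promoters of the table, and 3 or more matches in 0.0568% of them. Cdkn1b held 1 GGGCGG, Cdkn2c held 1 and Ccnd3 held 3, against 33.1% of all promoters with at least 1 and 8.97% with 3 or more. G and C made up 64.7%, 65.3% and 69.0% of these windows, against a median of 51.7% over all promoters. The shares were not matched for this. No match of any of the 7 motifs was found in the Cdkn1a window. A match is a run of letters and says nothing of binding in these cells.

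Cdkn2c, the INK4 inhibitor among the 10 genes, was at 1.32, 2.49 and 2.58 CPM in LPS and at 1.16, 1.66 and 1.51 CPM in LPS/siponimod. The groups overlapped because LPS replicate 1 lay within the range of LPS/siponimod, and the log2 fold change was -0.56 (SE 0.36), or -0.43 (SE 0.45) without replicate 3 of both. Between libraries of the same number, the LPS/siponimod to LPS ratio of Cdkn2c was 0.879, 0.665 and 0.585 for replicates 1, 2 and 3. With the replicate block its log2 fold change was -0.52 (SE 0.26), which was not called. Of the 4 other CDK inhibitors, which were not among the selected genes, 1 rose and none fell. Cdkn2d, a further INK4 inhibitor of Cdk4 and Cdk6, had 2.70, 3.12 and 2.93 CPM in LPS and 9.41, 9.10 and 7.63 CPM in LPS/siponimod, with no overlap between conditions. Its log2 fold change was 1.58 (SE 0.18, adjusted p = 0.00655 by edgeR's quasi-likelihood test), and it was called in all 14 alternative settings. Cdkn2a, whose products include an INK4 inhibitor of Cdk4 and Cdk6, had a log2 fold change of -0.96 (SE 0.51, adjusted p = 0.198) in the same edgeR fit, and passed only with the replicate block. Cdkn2b, a neighbour of Cdkn2a, was at 0.36 (SE 0.62, edgeR adjusted p = 0.684), with the highest LPS value, 71.0 CPM, in replicate 3, and passed as higher without that library, with a log2 fold change of 1.43, and without replicate 3 of both. The phosphatase Cdkn3 was at -1.43 (SE 0.59, edgeR adjusted p = 0.112).

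The D-type cyclins were lower on average in LPS/siponimod, Ccnd1 and Ccnd3 without overlap between conditions and Ccnd2 with it. Ccnd1 was at 100.0, 133 and 50.8 CPM in LPS and at 20.2, 42.5 and 35.7 CPM in LPS/siponimod. The LPS library of replicate 3 came closest to the other condition, and the log2 fold change was -1.53 (SE 0.42), or 2.88-fold lower, and -1.89 without replicate 3 of both. Ccnd3, the D-type cyclin prominent in cells of the blood lineage, was at 72.2, 92.9 and 41.3 CPM in LPS and at 20.9, 32.9 and 16.2 CPM in LPS/siponimod. In both conditions replicate 2 was highest and replicate 3 lowest, and the log2 fold change was -1.56 (SE 0.38), or 2.95-fold lower, and -1.61 without replicate 3 of both. For Ccnd2 the values were 108, 165 and 77.1 CPM in LPS and 37.3, 152 and 36.6 CPM in LPS/siponimod. Replicate 2 of LPS/siponimod stood within the LPS range while the other 2 libraries lay below every LPS library, and the log2 fold change was -0.63 (SE 0.63). Without LPS/siponimod replicate 2 it was -1.66 (SE 0.36) and passed the thresholds, and without replicate 3 of both it was -0.52 (SE 0.69) and did not. Between libraries of the same number, the LPS/siponimod to LPS ratio of Ccnd2 was 0.346, 0.926 and 0.475 for replicates 1, 2 and 3. With the replicate block its log2 fold change was -0.91 (SE 0.29), which was not called either.

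The partner kinases of the D-type cyclins differed in opposite directions. Cdk4 was at 40.5, 46.4 and 38.4 CPM in LPS and at 75.0, 61.2 and 78.5 CPM in LPS/siponimod. Every LPS/siponimod library was higher than every LPS library, and the log2 fold change was 0.78 (SE 0.14), or 1.71-fold. Cdk6 was at 7.91, 9.16 and 12.4 CPM in LPS and at 2.32, 4.30 and 3.63 CPM in LPS/siponimod. Here the conditions were apart in the other direction, with a log2 fold change of -1.52 (SE 0.30), or 2.87-fold lower. Cdk4 overlaps the gene Tspan31 in the RefSeq annotation, and whether the counting used strand is not given in the sources used here. Tspan31 itself was at 83.1, 76.3 and 67.6 CPM in LPS and at 70.6, 59.7 and 67.1 CPM in LPS/siponimod, with a log2 fold change of -0.20 (SE 0.13, edgeR adjusted p = 0.272). Ccnd3 and Cdk6 overlap long non-coding RNAs without a gene name in that annotation, which were not analysed here.

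Myc was at 2.62, 15.4 and 19.0 CPM in LPS and at 11.9, 11.8 and 10.9 CPM in LPS/siponimod. The LPS/siponimod libraries were nearly equal and lay inside the wide range of LPS, in which replicate 1 was lowest. The log2 fold change was -0.10 (SE 0.64), and its sign was not stable: it was -0.56 (SE 0.16) without LPS replicate 1, 0.12 without LPS replicate 2, 0.36 without LPS replicate 3 and 0.40 without replicate 3 of both conditions. With the replicate number as a block it was 0.25, and with limma-voom 0.33.

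**Figure D2:**
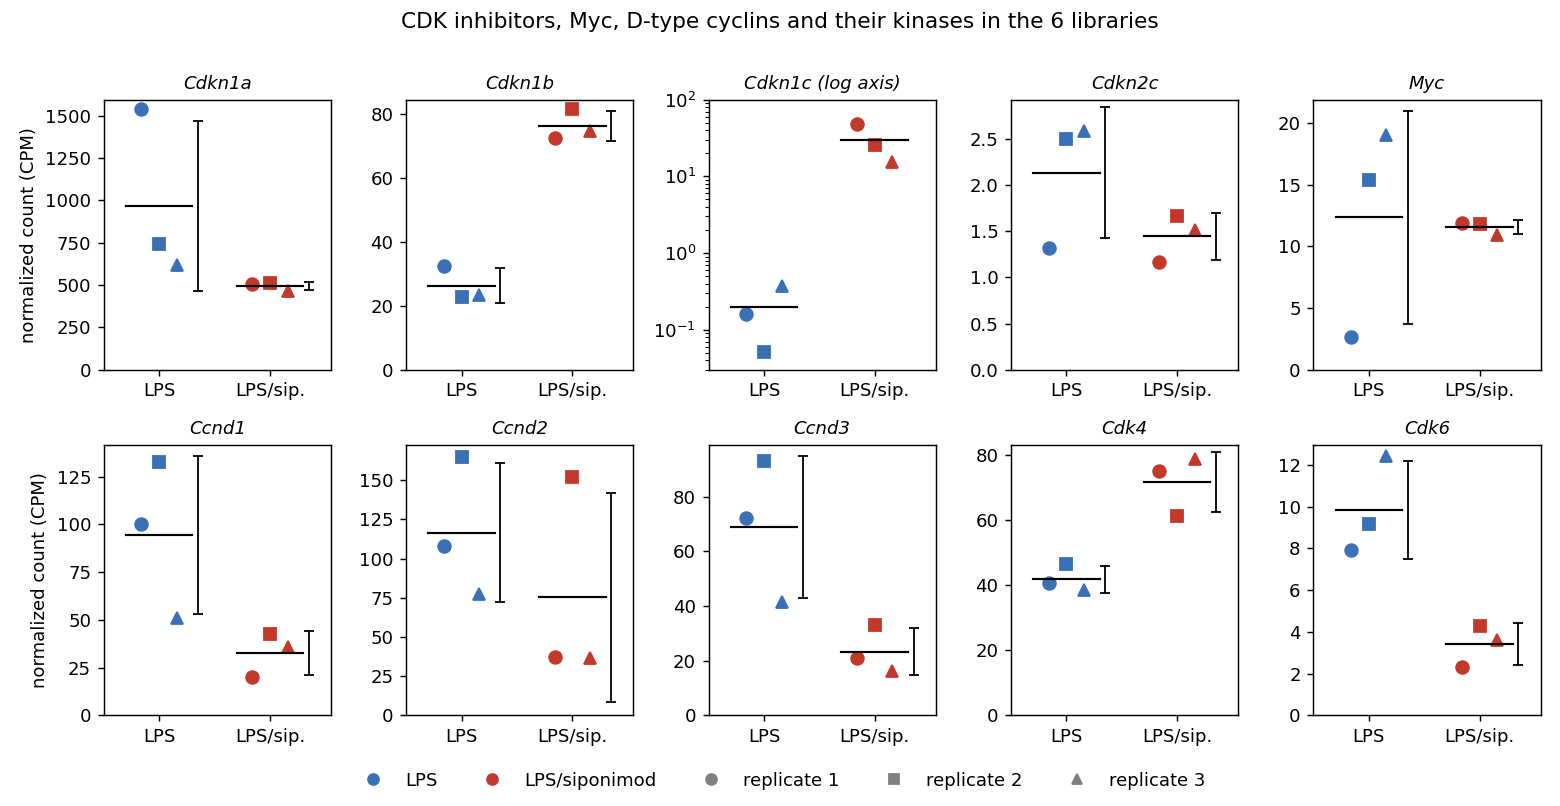
Normalized counts (CPM) of the 10 genes in the 6 libraries, with LPS in blue, LPS/siponimod in red, 1 symbol per replicate number, a line at the mean of each condition and bars of 1 SD beside the points (none for Cdkn1c, whose axis is logarithmic). Cdkn1b, Cdkn1c and Cdk4 were higher in every LPS/siponimod library, Cdkn1a, Ccnd1, Ccnd3 and Cdk6 were lower in every one, and Cdkn2c, Ccnd2 and Myc overlapped.

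The spread between libraries differed among the 10 genes and between conditions. Within LPS, the highest library of Myc exceeded the lowest 7.27-fold and that of Cdkn1a 2.50-fold, whereas within LPS/siponimod the same ratios were 1.09 and 1.10. For Ccnd2 the order was turned, with 2.13-fold in LPS and 4.16-fold in LPS/siponimod. Cdk4 varied little in either condition (1.21-fold and 1.28-fold). LPS replicate 1 held the highest Cdkn1a and the lowest Myc value of all 6 libraries, and libraries of replicate 2 held the highest Ccnd1, Ccnd2 and Ccnd3 value of their condition. Between libraries of the same number, the LPS/siponimod to LPS ratio of Ccnd3 ran from 0.289 to 0.392, that of Cdk6 from 0.292 to 0.469, that of Cdk4 from 1.32 to 2.04 and that of Cdkn1b from 2.23 to 3.55. Ccnd1 was less even, with ratios of 0.202, 0.321 and 0.703 for replicates 1, 2 and 3. For Myc the ratios were 4.55, 0.770 and 0.573, so that the pair of replicate 1 moved opposite to the others.

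In the fit over all genes, 6 of the 10 passed the thresholds of a DEG, beside 25.3% of all genes tested. Cdkn1b, Cdkn1c and Cdk4 were the 3 called higher (13.6% of all genes) and Ccnd1, Ccnd3 and Cdk6 the 3 called lower (11.7% of all genes). The groups did not overlap for the same 3 on the higher side (25.3% of all genes) and for 4 on the lower side, which were Ccnd1, Ccnd3, Cdk6 and Cdkn1a (24.0% of all genes). The median log2 fold change was -0.595 over the 10 genes and -0.0209 over all genes tested. Since the genes were selected on this comparison, nothing is read from these shares. DESeq2 called 7 (32.7% of the genes it tested) and edgeR's likelihood ratio test also 7 (29.8%), in both cases with Cdkn1a in addition. Blocking on the replicate number, the fit called 6 (34.0%), the same genes as without it.

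Calls depended on single libraries, as did the share of all genes called. Without LPS replicate 1, 3 of the 10 were called (13.9% of all genes), namely Cdkn1b, Cdkn1c and Cdk6. Only Cdkn1b and Cdkn1c were called without LPS replicate 2 (5.16%), without LPS/siponimod replicate 1 (6.22%) and without LPS/siponimod replicate 3 (8.5%). Without LPS replicate 3 there were 7 (30.3%), with Cdkn1a in addition, and without LPS/siponimod replicate 2 there were 6 (23.4%), with Ccnd2 in place of Ccnd1. When replicate 3 of both conditions was left out, Cdkn1b, Cdkn1c, Ccnd1 and Ccnd3 were called (19.3%), and Cdk4 and Cdk6 were not, at log2 fold changes of 0.65 and -1.36. Cdkn1b and Cdkn1c were thus called in every setting, and of the other 4, Ccnd1 ranged from -1.89 to -1.19, Ccnd3 from -1.90 to -1.28, Cdk4 from 0.65 to 0.87 and Cdk6 from -1.73 to -1.31 without a change of sign.

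**Figure D3:**
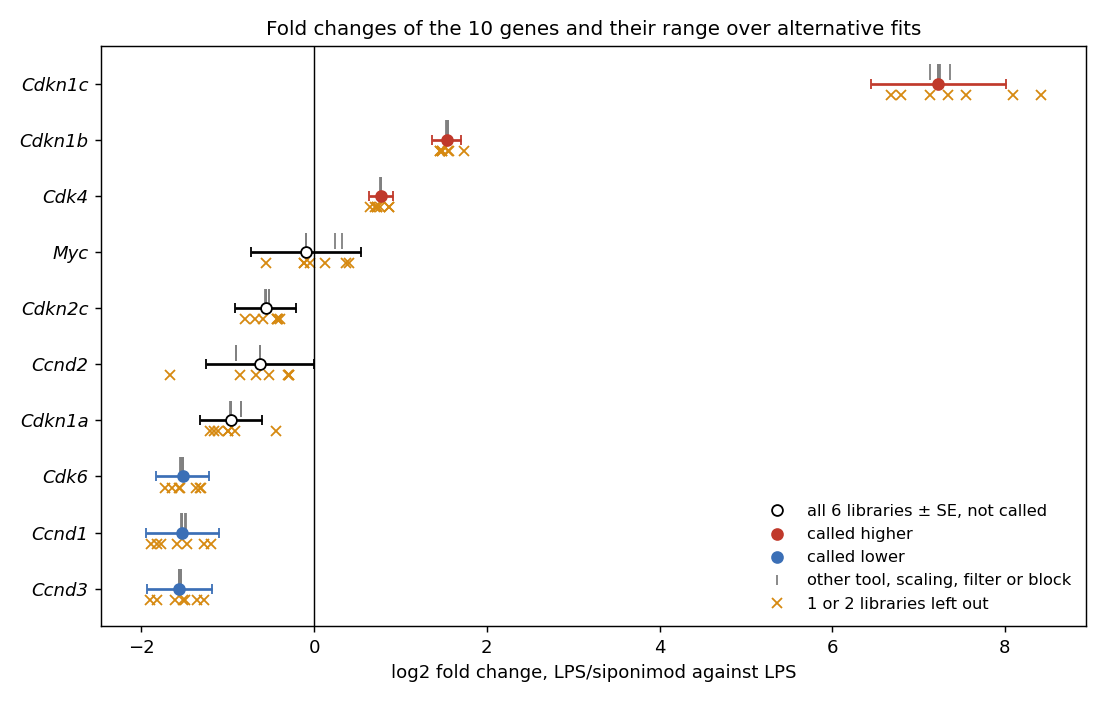
Log2 fold change of LPS/siponimod against LPS for the 10 genes, with circles for the fit of all 6 libraries ± SE (filled where called), grey ticks for another tool, scaling, filter or block and crosses for fits with 1 or 2 libraries left out. Cdkn1c lay between 6.68 and 8.41 in all alternatives, and Myc was the gene whose values lay on both sides of 0.

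The other genes of the G1 pathway are described by lists of well-known members, and all adjusted p-values below come from edgeR's quasi-likelihood test over all genes. Each count stands beside the 13.6% of all genes that were called higher and the 11.7% called lower. Of the RB and E2F genes downstream of the kinases, 10 of 12 found in the tables were tested, of which 1 rose (10.0%) and 2 fell (20.0%), shares near those of all genes, with a median log2 fold change of -0.0546. Tfdp2, a dimer partner of the E2F factors, rose from 2.71 ± 0.185 CPM to 8.74 ± 2.55 CPM (SD, n = 3 each, log2 fold change 1.69, SE 0.26, edgeR adjusted p = 0.0098). E2f2, an activator of replication genes, fell by 2.42 on the log2 scale (SE 0.44, edgeR adjusted p = 0.014), and the RB family member Rbl1 by 0.95 (SE 0.21, edgeR adjusted p = 0.023), with 45.8, 54.5 and 44.1 CPM in LPS and 25.5, 30.8 and 18.4 CPM in LPS/siponimod. Of the 6 fits with 1 library left out, Tfdp2 kept its call in 5, E2f2 in 1 and Rbl1 in 2. The log2 fold change lay between -2.66 and -2.13 for E2f2 and between -1.14 and -0.77 for Rbl1 in these fits. With LPS replicate 1, 2 or 3 left out, 1, 0 and 5 genes of the list were called, with LPS/siponimod replicate 1, 2 or 3 left out 1, 2 and 1, and with replicate 3 of both left out or with the block 5. Among 14 other cyclins, CDKs and their activators tested, none rose and 1 fell, with a median of -0.500. That gene was Cdc25a, the phosphatase that activates Cdk2, with 37.7, 53.3 and 61.0 CPM in LPS and 17.0, 25.9 and 19.1 CPM in LPS/siponimod (log2 fold change -1.29, SE 0.24, edgeR adjusted p = 0.0148). It was not called without LPS replicate 2, LPS/siponimod replicate 1 or 3, or replicate 3 of both, and over the 6 fits with 1 library left out its log2 fold change lay between -1.50 and -1.14, and the list had 2 calls without LPS replicate 3 and 3 with the block. Cdk2 itself was at 0.76 (SE 0.28, edgeR adjusted p = 0.0914) and was called higher with the replicate block (0.75, SE 0.17) and without LPS replicate 3 (0.99, SE 0.28).

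Genes of DNA synthesis and proliferation, which follow E2F activity, moved in both directions. Of 20 tested, 2 rose and 7 fell, and the median log2 fold change was -0.526. Thymidylate synthase Tyms, at 18.8, 13.0 and 9.61 CPM in LPS and at 1.83, 3.70 and 1.66 CPM in LPS/siponimod, fell by 2.53 on the log2 scale (SE 0.42, edgeR adjusted p = 0.0113). The thymidine kinase Tk1 fell by 2.63 on the log2 scale (SE 0.54, edgeR adjusted p = 0.0192) and the helicase subunit Mcm3 by 0.85 (SE 0.15, edgeR adjusted p = 0.0134). In the other direction, Pcna, the sliding clamp of DNA polymerase, was at 30.8, 25.5 and 32.3 CPM in LPS and at 81.6, 62.6 and 123 CPM in LPS/siponimod. Its log2 fold change was 1.59 (SE 0.27, edgeR adjusted p = 0.0116), and Mcm7, of the same helicase as Mcm3, rose by 1.43 (SE 0.29, edgeR adjusted p = 0.0179). The proliferation marker Mki67 was at 2.59, 6.54 and 8.83 CPM in LPS and at 2.45, 2.96 and 3.51 CPM in LPS/siponimod, and did not pass (edgeR adjusted p = 0.14), except as lower without LPS replicate 1 (log2 fold change -1.35, SE 0.27). Fewer genes of this list were called without LPS replicate 2 (0), LPS/siponimod replicate 1 (1), 2 (5) and 3 (3) and without replicate 3 of both (4), and 8 were called without LPS replicate 1 and without LPS replicate 3. At an unadjusted p under 0.05, 11 genes of the list passed with all libraries and 10 without LPS replicate 2. Over all genes, 5234 of 11977 tested and 3861 of 12613 tested passed at that p in these 2 fits.

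A list of ubiquitin ligase genes that act on CIP/KIP inhibitors and cyclins, with their cofactors, had 13 genes tested, of which 6 rose and none fell, with a median log2 fold change of 0.538. The 6 were Cks1b, Fbxo4, Cul4b, Cul1, Fbxo31 and Usp28, and Usp28 is a deubiquitinase, which removes ubiquitin, and not a ligase (log2 fold change 0.59, SE 0.15, edgeR adjusted p = 0.0351). Its fold change lay at the 1.5-fold threshold, and the call was lost in 9 of 14 alternatives, the block and limma-voom among them. Cks1b, the cofactor with which the ligase subunit Skp2 recognises Cdkn1b, was at 2.21, 2.86 and 4.55 CPM in LPS and at 12.5, 9.63 and 16.2 CPM in LPS/siponimod (log2 fold change 2.00, SE 0.34, edgeR adjusted p = 0.0123). Fbxo4, an F-box protein reported to target D-type cyclins, rose by 1.91 (SE 0.37, edgeR adjusted p = 0.0169) and the scaffold Cul4b by 0.62 (SE 0.11, edgeR adjusted p = 0.013). Skp2 was at 2.91 ± 0.974 CPM in LPS and 2.83 ± 0.747 CPM in LPS/siponimod (SD, n = 3 each, edgeR adjusted p = 0.946). Of the 13 genes, 7 had a log2 fold change above 0 and 6 below. Without overlap between conditions, Skp1 was lower by 0.49 (SE 0.15, edgeR adjusted p = 0.0508). The same held for Rbx1 (0.31, SE 0.13, edgeR adjusted p = 0.12) and Cul4a (0.14, SE 0.10, edgeR adjusted p = 0.338). None of the 3 was called. The number called was 4, 0 and 5 with LPS replicate 1, 2 or 3 left out, 0, 5 and 1 with LPS/siponimod replicate 1, 2 or 3 left out and 3 with replicate 3 of both left out, while 7 higher genes and 1 lower gene passed at an unadjusted p under 0.05 both with all libraries and without LPS replicate 2 or LPS/siponimod replicate 1. Over all 11977 genes tested, 2630 higher and 2604 lower passed at that p with all libraries. Without LPS replicate 2 it was 2058 and 1803 of 12613, and without LPS/siponimod replicate 1 it was 1953 and 1720 of 12583.

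Of 9 genes of the MYC network tested, 2 rose and none fell, with a median of 0.173. Mga and Mnt, which dimerise with Max and oppose Myc at E-boxes, were at 55.8, 52.6 and 51.5 CPM and at 36.8, 31.8 and 22.2 CPM in LPS. In LPS/siponimod they were at 163, 142 and 187 CPM and at 110.3, 85.0 and 84.3 CPM, above every LPS library. The log2 fold change of Mga was 1.62 (SE 0.14, edgeR adjusted p = 0.00396) and that of Mnt was 1.62 (SE 0.22, edgeR adjusted p = 0.00798), and both were called in all 14 alternatives. The other antagonists tested did not pass, with log2 fold changes of -0.19 for Mxd1 (edgeR adjusted p = 0.776), 0.18 for Mxd4 (edgeR adjusted p = 0.761) and 0.38 for Mxi1 (edgeR adjusted p = 0.651). Max had a log2 fold change of 0.07 (SE 0.13, edgeR adjusted p = 0.715). Of 19 classical MYC target genes tested, none rose and 2 fell, with a median of 0.157. Nme1, a nucleoside diphosphate kinase, fell by 1.54 on the log2 scale (SE 0.21, edgeR adjusted p = 0.00811), in all alternatives, and Ldha, lactate dehydrogenase, fell by 0.64 (SE 0.18, edgeR adjusted p = 0.0455), a call that was lost without the filter, without replicate 3 of both and with every single library left out except LPS replicate 3. Without LPS replicate 3 the list had 10 calls, 8 of them higher, with each other library left out 1, with replicate 3 of both left out 3 and with the block 4.

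**Figure D4:**
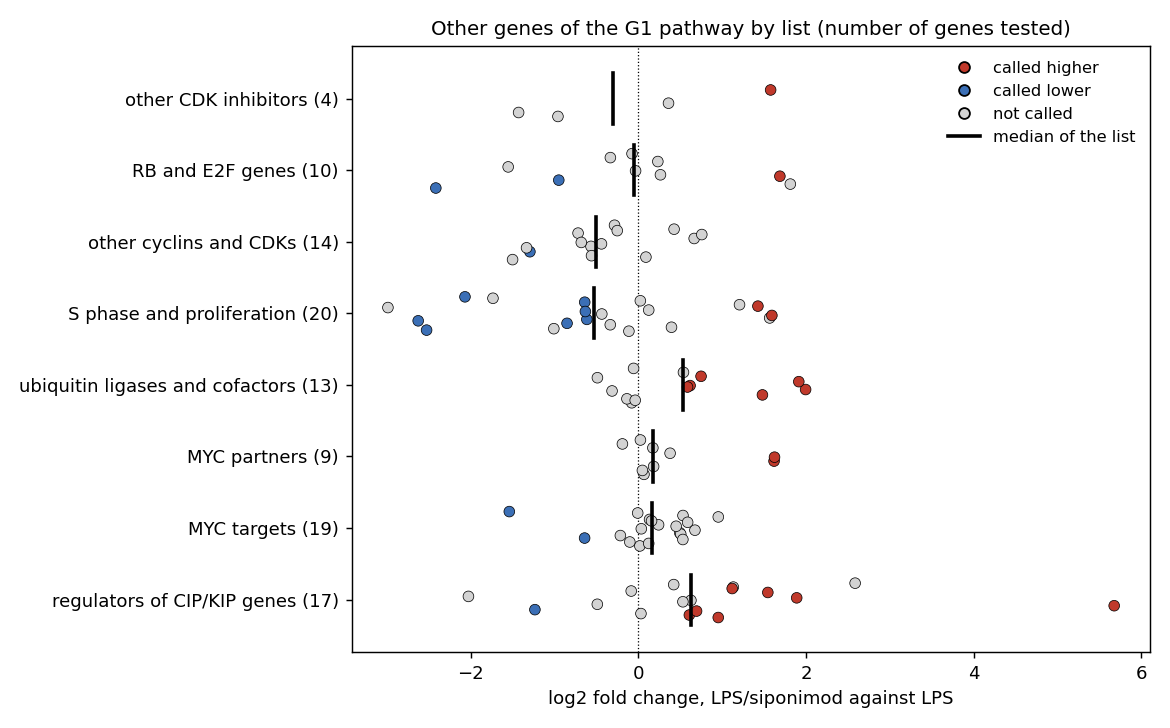
Log2 fold change of LPS/siponimod against LPS for each tested gene of 8 lists around the 10 genes, red where called higher, blue where called lower and grey where not called, with a black bar at the median of each list and the number tested in brackets. Called genes of the ubiquitin ligase list and of the MYC partner list lay on the higher side, and those of the S phase list on both sides.

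Next, a list of transcription factors and other genes linked to the control of CIP/KIP genes was examined. Not every gene on it is an established regulator of them. Of 17 genes of this list tested, 7 rose and 1 fell, with a median of 0.627. Tsc22d3, among the 7 that rose, and Gadd45b, which fell, are not established regulators of CIP/KIP genes. Klf4, a transcription factor that restrains proliferation, was at 8.45, 3.32 and 2.88 CPM in LPS and at 275, 237 and 238 CPM in LPS/siponimod. The LPS/siponimod libraries were nearly equal, and the log2 fold change was 5.68 (SE 0.50, edgeR adjusted p = 0.00396). Klf6 rose by 1.54 (SE 0.21, edgeR adjusted p = 0.00814), from 274 ± 61.8 to 798 ± 81.6 CPM (SD, n = 3 each), and Sp1, the factor that binds GC boxes, by 0.69 (SE 0.10, edgeR adjusted p = 0.00896), and these 3 genes were called in all 14 alternatives. The stress gene Gadd45b fell by 1.23 on the log2 scale (SE 0.30, edgeR adjusted p = 0.0288). Its call held in 2 of the 6 fits with 1 library left out (log2 fold changes from -1.58 to -1.06) and was lost in 5 of 14 alternatives. Foxo3, which activates Cdkn1b, was at 29.3 ± 9.58 CPM in LPS and 45.3 ± 6.06 CPM in LPS/siponimod (SD, n = 3 each). Foxo3 did not pass with condition alone (log2 fold change 0.63, SE 0.27, edgeR adjusted p = 0.123) and was called higher with the replicate block (0.68, SE 0.17), which called 11 genes of the list. The list had 6, 3 and 9 calls with LPS replicate 1, 2 or 3 left out, 4, 6 and 4 with LPS/siponimod replicate 1, 2 or 3 left out and 7 with replicate 3 of both left out.

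Cdkn1c lies in a cluster of imprinted genes, and none of its named neighbours was higher in LPS/siponimod by the test. The genes on either side in the RefSeq table are, in order, Cd81, Tssc4, Trpm5 and Kcnq1 before it and Slc22a18, Phlda2, Nap1l4 and Snora54 after it, of which the small RNA gene Snora54 was not analysed here. Kcnq1, a potassium channel, had 1, 7 and 2 counts in LPS and 1, 2 and 0 in LPS/siponimod, and Phlda2, an imprinted growth regulator, had 5, 1 and 0 counts in LPS and 0, 0 and 2 in LPS/siponimod. Both were too low to be tested, and Trpm5 had no count in any library. The remaining neighbours had log2 fold changes below 0, namely Slc22a18 with -0.94 (SE 0.36, edgeR adjusted p = 0.0948), Nap1l4 with -0.69 (SE 0.21, edgeR adjusted p = 0.0509), Cd81 with -1.68 (SE 0.51, edgeR adjusted p = 0.0509) and Tssc4 with -0.63 (SE 0.30, edgeR adjusted p = 0.155). None of these passed in the fit of all libraries, but Cd81 lay just outside the threshold and was called lower in 8 of 14 alternatives, DESeq2, limma-voom, RLE scaling, the likelihood ratio test and the block among them, at log2 fold changes from -2.24 to -1.68. Nap1l4 was called lower in 3 of the alternatives, Slc22a18 in 2 and Tssc4 in 1. Over the list of imprinted genes, which includes these neighbours but not Cdkn1c, 13 were tested, of which 1 rose and 1 fell, with a median of -0.099. Igf2r, a receptor that clears insulin-like growth factor 2, was at 15.8, 11.2 and 6.78 CPM in LPS and at 143, 67.8 and 145 CPM in LPS/siponimod (log2 fold change 3.40, SE 0.44, edgeR adjusted p = 0.00733), and was called in all 14 alternatives. Ascl2, from the same imprinted region as Cdkn1c, fell by 2.04 on the log2 scale (SE 0.51, edgeR adjusted p = 0.0321). The block called 6 imprinted genes, leaving out LPS replicate 3 called 5, leaving out LPS/siponimod replicate 2 or replicate 3 of both called 3, and leaving out any other library called 1, Igf2r. Dlk1, an imprinted gene of progenitor cells, had 0, 4 and 398 counts in LPS and 12, 17 and 1497 in LPS/siponimod. It was highest in replicate 3 of both conditions and higher in LPS/siponimod in all 3 pairs, and it passed with the replicate block (log2 fold change 2.00, SE 0.43) but not without it (1.78, SE 2.38, edgeR adjusted p = 0.598), where leaving out single libraries moved it from -3.48 to 7.81 and so turned its direction.

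**Figure D5:**
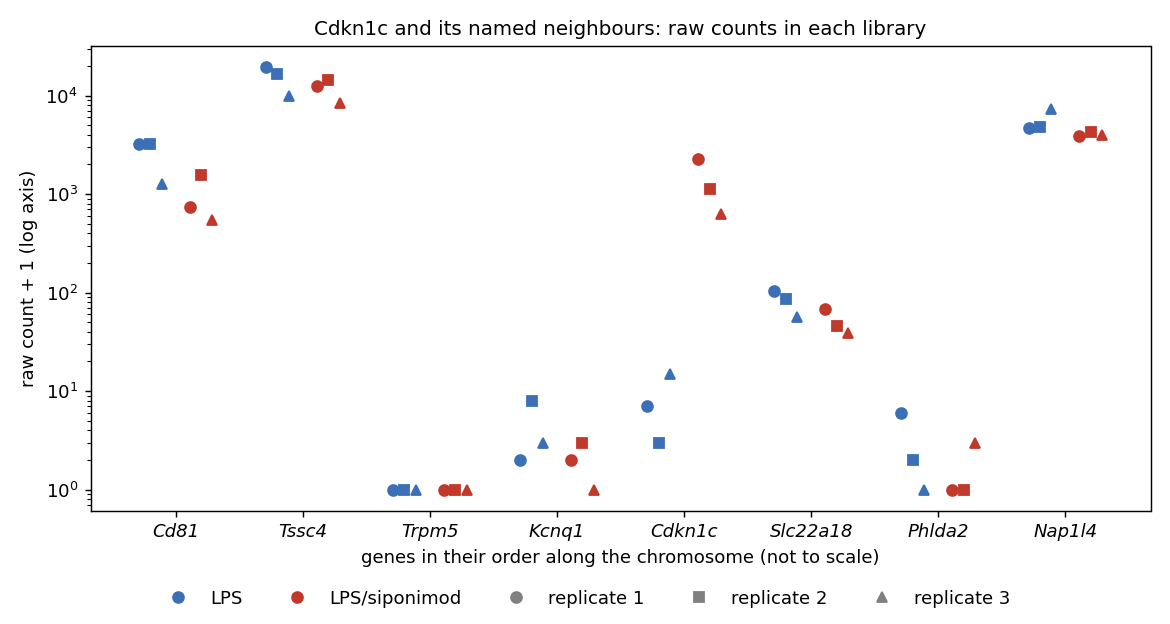
Raw count + 1 (log axis) of Cdkn1c and its named neighbours in the order of the RefSeq gene table, not to scale, in the 6 libraries (LPS blue, LPS/siponimod red, 1 symbol per replicate number). Cdkn1c had at most 14 counts in LPS and at least 632 in LPS/siponimod, while Kcnq1 and Phlda2 stayed at 7 counts or fewer and Trpm5 at 0.

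The genes whose pattern over the 6 libraries was most like that of Cdkn1c were found by the root mean square difference of log2 CPM (prior count of 2) after centring each gene on its mean. They were Hspa4l, a heat shock protein gene, at 0.617, the C-type lectin receptor gene Clec4d at 0.694, Gfpt2, an enzyme of the hexosamine pathway, at 0.713, the lectin receptor gene Clec5a at 0.745 and Emp1 at 0.806. Hspa4l had 2.32, 1.01 and 6.49 CPM in LPS and 425, 218 and 456 CPM in LPS/siponimod, and Gfpt2 had 1.54, 0.337 and 0.565 CPM in LPS and 210, 120 and 59.6 CPM in LPS/siponimod. Gfpt2 shared with Cdkn1c the order of the LPS/siponimod libraries, in which replicate 1 was highest and replicate 3 lowest, whereas Hspa4l was highest in replicate 3. The measure follows the difference between conditions above all else, with 6 libraries of which 3 are low and 3 high.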

How the data were processed

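The deposited values are raw counts of total reads per gene and library. Per the labels and the study's methods, the authors demultiplexed polyA-selected single-end reads with bcl2fastq (2.20.0.422) and mapped and counted them in the CLC Genomics Workbench on mRatBN7.2, without normalization. Strand, introns and multi-mapping reads are not given in the sources used here. In 1 table, 1 row without name or value was left out.

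Counts were fitted in R (4.3.3) with edgeR (4.0.16): filterByExpr (minimum count 10, minimum total 15), TMM factors, glmQLFit and glmQLFTest on condition alone, Benjamini-Hochberg adjustment over 11977 genes, and calls at adjusted p ≤ 0.05 with a 1.5-fold difference or more. Depth was 38080379 to 46643859 counts, and counting intervals cover counting error only. With 3 against 3 libraries, an exact permutation test cannot go below 0.1, so none was used for single genes. The study calls the libraries biological replicates. Same-numbered libraries deviated together from their group means (r over genes of 0.42, 0.545 and 0.611, against -0.534 to 0.0856 otherwise). Pairing by number rests on these values and on no label. The main fit left it out, and a block was an alternative. Others were RLE factors, DESeq2 (1.42.0), limma-voom (limma 3.58.1), the likelihood ratio test, no filter, a mean of at least 1 CPM and each library left out. The script was tested on simulated counts.

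The 10 genes and all lists were chosen with earlier results of these data known. Named were the 10 genes, up to 3 called genes per list and direction with the smallest adjusted p, the other CDK inhibitors, the neighbours of Cdkn1c, the 5 genes most like it and the leading markers. Pdgfra, Olig1, Dlk1, Cdk2, Skp2, Skp1, Rbx1, Cul4a, Max, Mxd1, Mxd4, Mxi1, Mki67, Foxo3, Tsc22d3, Gapdh, Odc1, Tspan31 and the remaining ubiquitin list calls were added after their values were seen. RefSeq tables are of GRCr8, not the build of the counts, and supplied gene order and promoters only. Protein sequences were not analysed here. A further list of upstream genes is not reported here.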

Additional observations from a re-analysis of the deposited data

How the results depend on the processing

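Of the 10 genes' fold changes under 14 alternatives, 113 values kept direction and side of the threshold, 18 kept the direction and lost the call, 4 gained a call, and 5, all of Myc, changed sign. Those of Myc were 0.33 with limma-voom, 0.25 with the replicate block, 0.12 and 0.36 without LPS replicate 2 or 3 (range over the 6 libraries left out singly -0.56 to 0.36), and 0.40 without replicate 3 of both conditions, which was added after seeing the data; the cause was not tested. With each library left out, the number of DEGs ranged from 469 to 1941 higher and from 182 to 1772 lower, and that of the 10 genes from 2 to 3 called higher and from 0 to 4 called lower, with fewer samples in each such fit. DESeq2 and the likelihood ratio test called Cdkn1a in addition. The replicate block gave 2114 DEGs higher and 1960 lower, against 1633 and 1403 without it, and called the same 6 of the 10 genes. Another scaling (RLE) gave 1641 and 1421, and the median log2 fold change of all genes lay between -0.0389 and 0.0143 in all settings. In the lists, DESeq2 called 5 RB and E2F genes, 5 imprinted genes, 4 MYC targets, 6 microglia markers and 3 endothelial markers, the likelihood ratio test 5, 6 and 3 of the imprinted genes and the microglia and endothelial markers, and the fit without a filter 5 genes of DNA synthesis, 1 MYC target and 2 microglia markers. Depth widens the counting intervals of Cdkn1c, which had 2 to 14 counts in LPS, though its pairs differed by more than these intervals, and Kcnq1, Phlda2 and Trpm5 were too low to be tested.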

Other observations

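The reference gene of the study's quantitative PCR, Gapdh, was at 4594, 3549 and 3723 CPM in LPS and at 2910, 2790 and 2672 CPM in LPS/siponimod. Its groups did not overlap, and its log2 fold change of -0.50 (SE 0.20, adjusted p = 0.099 by edgeR's quasi-likelihood test) passed in none of the 14 alternatives. Of Hprt1, Odc1 and Tbp, which were considered as references but not used, 1 fell and none rose with all libraries. Hprt1, an enzyme of purine salvage, was at 301, 329 and 365 CPM in LPS and at 137, 154 and 75.2 CPM in LPS/siponimod, with no overlap between conditions. Its log2 fold change was -1.44 (SE 0.28, adjusted p = 0.0169 by edgeR's quasi-likelihood test), and it was not called without LPS replicate 2 or without LPS/siponimod replicate 1 (range over the 6 fits with 1 library left out -1.65 to -1.19). Odc1, the key enzyme of polyamine synthesis, was called higher with the replicate block (log2 fold change 0.95), without LPS replicate 3 (1.38) and without replicate 3 of both conditions (0.99).

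Of the other cell type lists, the myelin gene Mbp rose, with 4.02, 4.18 and 2.26 CPM in LPS and 10.1, 8.89 and 15.9 CPM in LPS/siponimod (log2 fold change 1.74, SE 0.34, edgeR adjusted p = 0.0172), and it was not called without LPS replicate 2 or LPS/siponimod replicate 1 or 3. Flt1, a receptor of vascular endothelial growth factor, fell by 2.06 on the log2 scale (SE 0.30, edgeR adjusted p = 0.00913) in all 14 alternatives. The other endothelial markers tested, Pecam1 and Cdh5, were not called in the edgeR fit of all libraries. Both were called lower with the replicate block, at -2.40 (SE 0.35) and -1.48 (SE 0.26). The same held for DESeq2, the likelihood ratio test and the fit without LPS/siponimod replicate 2. Of the 5 markers in each of the other lists, 2 astrocyte, 4 fibroblast and 1 neuron marker (Tubb3) had enough counts to be tested. By edgeR's quasi-likelihood test of all libraries 0 of these were called, and at an unadjusted p under 0.05 there were 0, 1 and 0. Over all 11977 genes tested, 25.3% were called and 5234 passed at that unadjusted p. Col1a1 was called lower by DESeq2 and limma-voom, and Tubb3 higher with the replicate block, and each was also called without LPS replicate 3 and without replicate 3 of both conditions.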
